A study of Mus musculus with 9 samples.

Results

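A group of 47 genes that cells use to copy their DNA and to divide was examined in whole uteri of mice with and without *Wnk1*, the gene of the kinase WNK1. The genes were taken by symbol from the deposited expression table, and all 47 were found among its 31274 entries, 19 of them genes of DNA replication and S phase and 28 genes of mitosis. In bulk tissue, a change in the number of dividing cells and a change in the amount of RNA per cell cannot be told apart.

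Uterine RNA was sequenced on pseudopregnancy day (PPD) 4.5 from 4 *Wnk1fl/fl* mice (given as Wnk1f/f in the labels) and 5 *Wnk1d/d* mice, with 1 library for each mouse. All were C57BL/6 mice, and the methods give an age of 6 to 10 weeks for the virgin mice mated to set up pregnancy or pseudopregnancy. Both groups carried the conditional *Wnk1* allele on both chromosomes, and the *Wnk1d/d* mice also carried Cre under the progesterone receptor gene (*PGRCre*), which removes exon 2. Recombination is limited to cells that have expressed the progesterone receptor, so immune and endothelial cells of the uterus keep *Wnk1*, whereas progesterone receptor-positive cells of the ovary and pituitary also recombine. Pseudopregnancy followed mating with vasectomized males, so no embryos were present. Expression was given as FPKM, fragments per kilobase of transcript scaled to the size of the library. The targeted gene checked the labels: *Wnk1* lay between 43.4 and 47.3 FPKM in the 4 *Wnk1fl/fl* libraries and between 29.9 and 33.9 FPKM in the 5 *Wnk1d/d* libraries, whose values include exons outside the deletion.

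A dividing cell first licenses its replication origins by loading the MCM helicase with the help of CDC6 and CDT1, then opens the forks, where PCNA clamps the polymerases to DNA, while ribonucleotide reductase, thymidylate synthase and thymidine kinase supply the nucleotides. The genes of this machinery are transcribed mainly under E2F factors at the border of G1 and S phase. Mitosis follows under cyclin B and CDK1, with Aurora and Polo kinases, a spindle of motor proteins, a checkpoint at the kinetochores, and the anaphase-promoting complex, which ends it. Its genes are transcribed later, in G2 and M phase, through FOXM1, MYBL2 and the DREAM and MuvB complexes at CHR promoter elements. In the mouse uterus around implantation, the epithelium leaves the cell cycle under progesterone while stromal cells proliferate.

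As a group, the S phase and mitosis genes were modestly higher in *Wnk1d/d* uteri. These genes were measured in the same mice and are not independent of each other, so counts of genes do not stand for replicates. The log2 fold change, *Wnk1d/d* minus *Wnk1fl/fl* on the log2(FPKM + 1) scale, was above 0 for 45 of the 47 genes, where 50.5% of all 14728 genes tested were above 0. Its median was 0.38 (1.30 times), ranging from -0.15 to 0.81, against a median of 0.003 over all genes tested. Single genes seldom passed the test: with limma and a Benjamini-Hochberg adjusted p under 0.05 over all genes tested, 6 of the 47 were higher and 0 were lower in *Wnk1d/d* uteri, where 11.1% of all genes tested were called higher and 11.0% lower. The share called among the 47 was thus near that of all genes. At an unadjusted limma p under 0.05, 29 of the 47 (61.7%) were higher and 0 lower, where 19.7% of all genes tested were higher. Differentially expressed genes (DEGs), which also needed mean FPKM to differ by 1.5 times or more, numbered 5 of the 47, where 5.09% of all genes tested were DEGs higher in *Wnk1d/d* uteri. Every *Wnk1d/d* library exceeded every *Wnk1fl/fl* library for 4 of the 47 genes, where 9.27% of all genes tested were separated in this direction. The plot of fold changes by gene shows the common shift beside the wide standard errors.

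**Figure D1:**
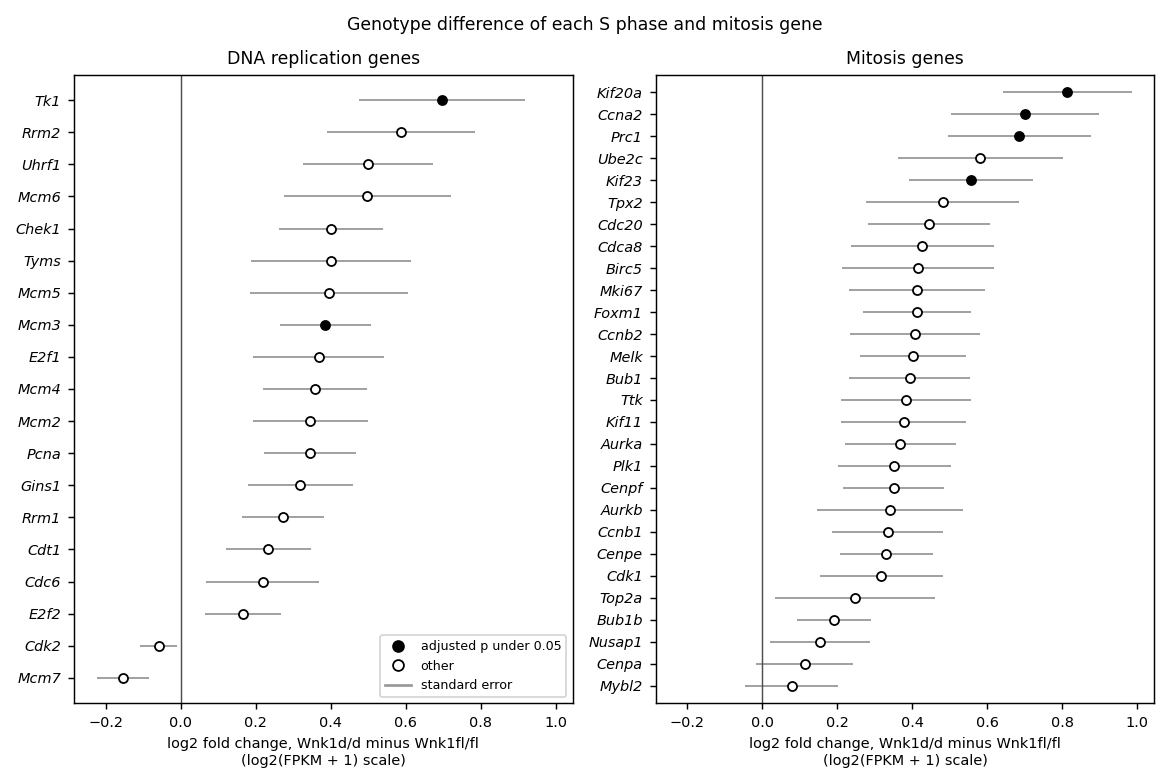
Log2 fold change (*Wnk1d/d* minus *Wnk1fl/fl*, log2(FPKM + 1) scale, horizontal axis) of each of the 19 DNA replication and 28 mitosis genes (vertical axis), with bars of 1 standard error from limma and the 6 genes with an adjusted p under 0.05 marked. Only *Mcm7* and *Cdk2* lie left of 0, and *Kif20a* lies farthest right at 0.81.

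Individual libraries had a large part in the values. *Wnk1fl/fl* replicate 4 was the lowest of the 9 libraries for 41 of the 47 genes (87.2%, where it was lowest for 21.3% of all genes tested), and *Wnk1d/d* replicate 3 was the highest for 38 (80.9%, against 12.9% of all genes tested). *Wnk1fl/fl* replicate 3 was the highest control for 40 of the 47. As the plot of means by library shows, the replication genes lay on average 0.51 below their means over the 9 libraries (log2 scale) in *Wnk1fl/fl* replicate 4, 0.16 and 0.14 below in replicates 1 and 2, and 0.08 above in replicate 3. In *Wnk1d/d* uteri their mean was -0.02 in replicate 1, 0.02 in replicate 2, 0.39 in replicate 3, 0.25 in replicate 4 and 0.09 in replicate 5. The mitosis genes followed the same order of controls, at -0.65 in replicate 4, -0.23 in replicate 1, -0.14 in replicate 2 and 0.14 in replicate 3, and *Wnk1d/d* libraries lay between 0.01 in replicate 1 and 0.41 in replicate 3. The highest control thus lay within the *Wnk1d/d* range in both groups of genes. The centred values of the single genes show the same 2 columns standing apart.

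**Figure D2:**
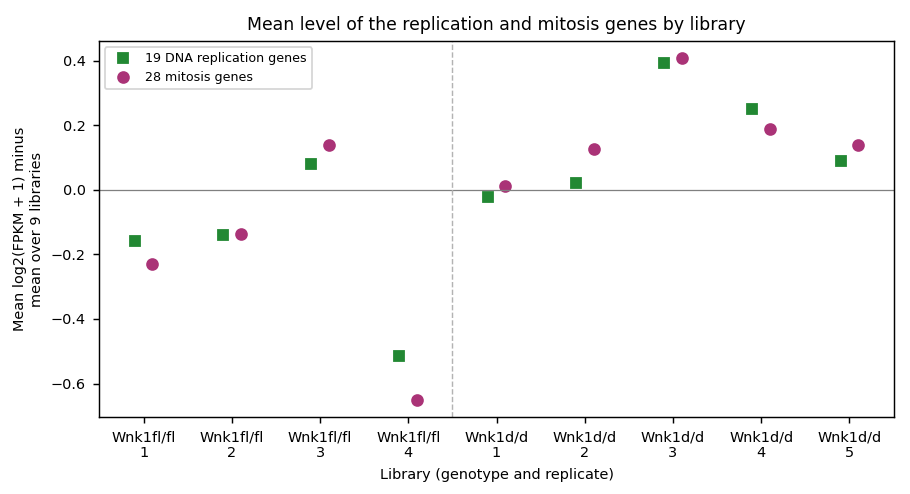
Mean log2(FPKM + 1) of the 19 replication genes and of the 28 mitosis genes in each library, each gene centred on its mean over the 9 libraries (vertical axis), by genotype and replicate (horizontal axis). *Wnk1fl/fl* replicate 4 lies lowest at -0.51 and -0.65, *Wnk1d/d* replicate 3 highest at 0.39 and 0.41, and *Wnk1fl/fl* replicate 3 among the *Wnk1d/d* libraries.

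**Figure D3:**
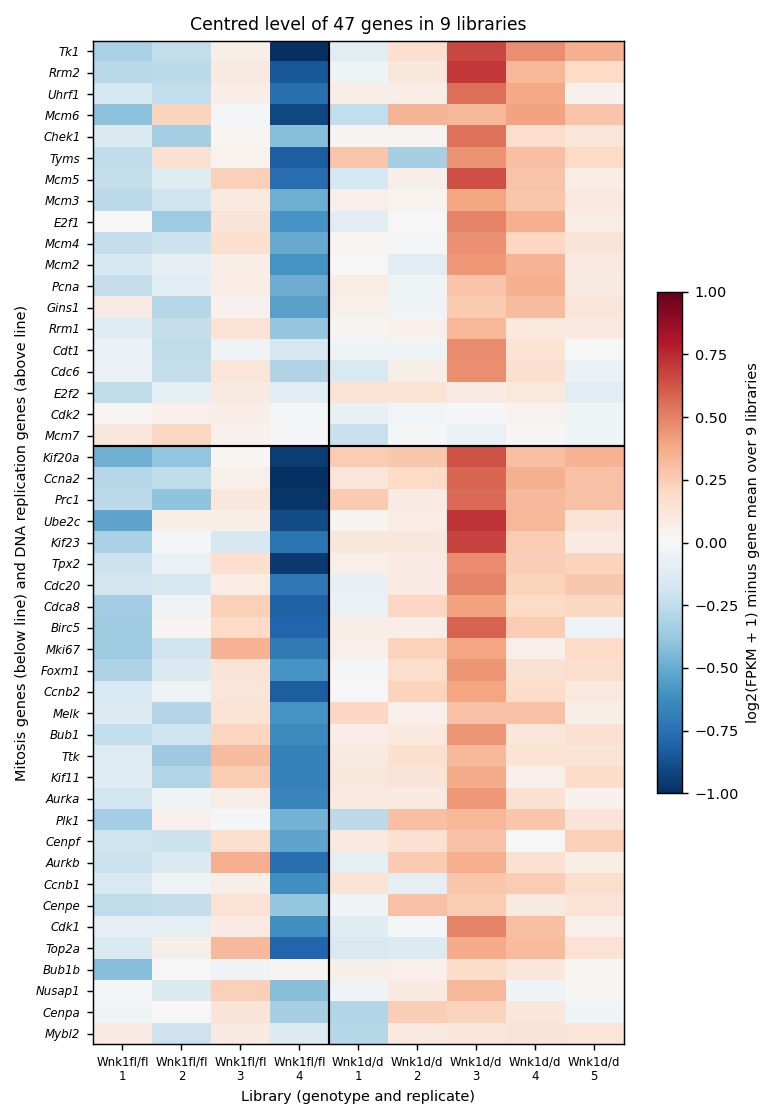
Log2(FPKM + 1) of each of the 47 genes (rows, replication genes above the line) minus its mean over the 9 libraries, by library (columns), as colours whose scale is given by the bar. The column of *Wnk1fl/fl* replicate 4 holds the lowest value in 41 rows and that of *Wnk1d/d* replicate 3 the highest in 38.

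*Wnk1fl/fl* replicate 4 also stood apart in its tissue markers. Its liver list of 7 genes summed to 170 FPKM, with 77.7 FPKM of albumin (*Alb*), whereas the list summed to between 8.32 and 10.9 FPKM in the other controls and 8.41 and 28.2 FPKM in *Wnk1d/d* libraries, and *Alb* did not exceed 1.5 FPKM elsewhere. Its smooth muscle list was the lowest of all, at 2819 FPKM. Of the lists for cell types, smooth muscle differed most in one direction between genotypes, with 7 of 7 genes called higher and sums of 2819 to 6419 FPKM in *Wnk1fl/fl* and 7256 to 13736 FPKM in *Wnk1d/d* libraries. Endothelial genes were called lower in 6 of 7 cases, with sums of 360 to 392 and 145 to 304 FPKM. Epithelial markers, which with the stromal ones mark the endometrium, summed to 1017 to 1485 and 1095 to 1640 FPKM, with 1 of 8 called higher, and stromal markers to 1306 to 1658 and 1534 to 1932 FPKM, with 2 of 7 called higher and 4 lower. Leukocyte markers (0 of 5 tested genes called, 41.8 to 81.2 and 34.9 to 60.9 FPKM), uterine natural killer cell markers (1 of 7 called lower, 63.7 to 150.5 and 79.3 to 117.6 FPKM) and red cell markers (0 of 1 tested called, 19.3 to 39.3 and 12.7 to 56.5 FPKM) overlapped in their sums. Ovary and oviduct markers summed to 27.4 to 34.7 and 47.5 to 102.1 FPKM, with 1 of 4 tested genes called higher, the oviduct gene *Ovgp1*. *Foxj1*, also in this list, was at 0.10 to 0.17 FPKM in *Wnk1fl/fl* and 0.16 to 0.31 FPKM in *Wnk1d/d* libraries, too low to be tested. Without *Ovgp1* the sums were 16.9 to 20.7 and 15.2 to 36.2 FPKM and overlapped. *Cyp11a1*, a steroidogenic enzyme of the ovary, was at 13.9 FPKM in *Wnk1d/d* replicate 3, the library highest for most of the 47 genes, and at most 4.23 FPKM elsewhere. No defining marker list of the uterus was at 0. The part of these differences in the levels of the S phase and mitosis genes was not tested.

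The genes of DNA replication differed little one by one. Of the 19, 2 were called higher in *Wnk1d/d* uteri and 0 lower, where 11.1% of all genes tested were called higher. At an unadjusted limma p under 0.05, 10 of the 19 were higher (19.7% of all genes tested), and 5 of the 19 without *Wnk1fl/fl* replicate 4 (15.4% of all genes in that fit). The log2 fold change was above 0 for 17, with a median of 0.36 (1.28 times), and 0.22 without that library. The 2 called were *Mcm3*, a helicase subunit, and *Tk1*, the thymidine kinase that salvages thymidine in S phase. The other 17 had log2 fold changes between -0.15 and 0.59 and limma adjusted p between 0.059 and 0.40.

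Among the 11 genes of origin licensing and the fork, 1 was called, where 11.1% of all genes tested were called higher. Their median log2 fold change was 0.35. *Mcm3* measured 14.1, 14.7, 18.3 and 11.8 FPKM in *Wnk1fl/fl* replicates 1 to 4 and 17.7, 17.5, 22.7, 20.8 and 18.3 FPKM in *Wnk1d/d* replicates 1 to 5. The groups overlapped through *Wnk1fl/fl* replicate 3, which exceeded both *Wnk1d/d* replicates 1 and 2. The means were 14.7 ± 2.66 (SD, n = 4) and 19.4 ± 2.25 FPKM (SD, n = 5), a log2 fold change of 0.39 (SE 0.12, limma adjusted p = 0.048, exact permutation p = 0.032). Without *Wnk1fl/fl* replicate 4 it was 0.29 (limma adjusted p = 0.12), and *Mcm3* was called in 2 of the 9 leave-one-out fits, in which 1 library at a time was dropped.

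The other helicase subunits are built from the same ring as *Mcm3* but did not all lie on the same side of 0. *Mcm2*, *Mcm4*, *Mcm5* and *Mcm6* had log2 fold changes of 0.35, 0.36, 0.40 and 0.50, none of them called (limma adjusted p = 0.13, 0.090, 0.19 and 0.13). *Mcm2* measured 12.3, 12.97, 14.6 and 8.81 FPKM in *Wnk1fl/fl* and 13.9, 12.8, 19, 17.8 and 14.8 FPKM in *Wnk1d/d* libraries, so 2 controls lay within the *Wnk1d/d* range. *Mcm6* was the most scattered of them among controls, with 11.6, 18.5, 15.6 and 7.89 FPKM in *Wnk1fl/fl* and 13.1, 20.2, 19.95, 21.0 and 19.3 FPKM in *Wnk1d/d* libraries. *Mcm7* measured 16.4, 17.6, 15.6 and 14.9 FPKM in *Wnk1fl/fl* and 12.8, 14.9, 14.4, 15.2 and 14.6 FPKM in *Wnk1d/d* libraries. It was the one helicase subunit with a negative log2 fold change, -0.15 (SE 0.07, limma adjusted p = 0.14, exact permutation p = 0.040), and with *Cdk2* 1 of the 2 genes below 0 in each of the alternative fits that tested it. The ratio of *Mcm7* to the mean of *Mcm2* to *Mcm6*, chosen after these values were seen, was 1.44, 1.33, 1.05 and 1.74 in *Wnk1fl/fl* and 0.97, 1.01, 0.75, 0.88 and 0.95 in *Wnk1d/d* libraries, with no overlap. Since this ratio was built from a difference already seen, its separation is no test, and *Mcm7* itself overlapped between the genotypes. *Mcm7* shares 321 exon bases with *Ap4m1* and 64 with *Cops6* on the opposite strand, and 2132 bases of its transcript match the pseudogene *Gm5487* at 97.8% identity, so its level is uncertain where the counting could split reads between them.

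*Pcna*, the sliding clamp, measured 17.3, 18.98, 21.6 and 14.2 FPKM in *Wnk1fl/fl* and 21.7, 19.8, 25.2, 26.5 and 21.9 FPKM in *Wnk1d/d* libraries. *Wnk1d/d* replicate 2 lay below *Wnk1fl/fl* replicate 3, and the others lay above all controls. The log2 fold change was 0.34 (SE 0.12, limma adjusted p = 0.072, exact permutation p = 0.040). Of the other fork genes, *Uhrf1*, which carries DNA methylation through replication, had a log2 fold change of 0.50 (limma adjusted p = 0.065), and *Gins1*, a part of the active helicase, 0.32 (limma adjusted p = 0.12). The licensing factors had smaller values, 0.23 for *Cdt1* (limma adjusted p = 0.16) and 0.22 for *Cdc6* (limma adjusted p = 0.31), and at a mean of 0.999 FPKM over the 9 libraries *Cdc6* was the lowest of the 47 genes.

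Promoter sequence offers a feature of these genes that the choice of members did not use. RefSeq promoter windows on GRCm38.p6, from 250 bases before to 50 bases after the annotated start, were found for 40 of the 47 genes (44 windows, as 4 genes have 2). They were searched on both strands for an E2F-type element (TTTCCCGC, TTTCGCGC, TTTGCCGC or TTTGGCGC), for a CHR (TTTGAA or TTCGAA) and for a CCAAT box (CCAAT), which do not contain one another but can share bases. An E2F-type match occurred in 9 of 20 replication windows (45%), in 1 of 24 mitosis windows (4.17%, that of *Cdk1*), in 2.26% of all 32851 windows and in 3.69% of 13125 windows of genes tested. Replication genes with a window but no E2F-type match were *Tk1*, which was called, and *Pcna*, *Mcm2*, *Rrm1*, *Rrm2*, *Tyms*, *Chek1* and *E2f1*. Windows of 3 helicase subunits with E2F-type matches are shown, from genes on both sides of 0. *Mcm7* has a second window, not shown, with 0 E2F-type and 0 CHR matches and 1 CCAAT box. Capitals mark matches to any of the 3 motifs, and all 3 windows lie on the minus strand, *Mcm3* at chr1:20820263-20820562, *Mcm6* at chr1:128359656-128359955 and *Mcm7* at chr5:138171834-138172133.
Mcm3: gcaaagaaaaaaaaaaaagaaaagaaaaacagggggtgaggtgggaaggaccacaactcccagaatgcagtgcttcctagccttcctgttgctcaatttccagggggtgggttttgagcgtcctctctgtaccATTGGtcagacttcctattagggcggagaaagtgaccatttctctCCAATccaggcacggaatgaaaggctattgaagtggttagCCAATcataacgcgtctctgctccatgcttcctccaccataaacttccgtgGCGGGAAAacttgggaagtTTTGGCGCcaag
Mcm6: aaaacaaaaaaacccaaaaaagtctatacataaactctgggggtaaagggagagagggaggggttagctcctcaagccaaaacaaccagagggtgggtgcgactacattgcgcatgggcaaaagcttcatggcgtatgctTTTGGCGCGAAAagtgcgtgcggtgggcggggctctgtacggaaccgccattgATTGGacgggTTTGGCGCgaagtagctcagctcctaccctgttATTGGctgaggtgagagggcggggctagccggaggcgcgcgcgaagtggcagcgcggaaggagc
Mcm7: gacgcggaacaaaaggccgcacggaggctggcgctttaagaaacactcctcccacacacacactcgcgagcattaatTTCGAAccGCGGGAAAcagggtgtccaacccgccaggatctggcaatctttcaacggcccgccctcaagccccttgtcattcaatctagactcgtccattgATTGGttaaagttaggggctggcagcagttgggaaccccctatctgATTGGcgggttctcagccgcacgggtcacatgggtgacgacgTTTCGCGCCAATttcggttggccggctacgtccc
In *Mcm3* the E2F-type matches start 20 and 39 bases after the start, in *Mcm6* they start 110, 106 and 47 bases before it, and in *Mcm7* 1 starts 165 bases before and 1 starts 17 bases after it. The first 2 of *Mcm6* lie on opposite strands and share 4 bases, and the last of *Mcm7* shares 1 base with a CCAAT box. A CCAAT box occurred in all 3, and *Mcm7* also holds a CHR. A match to these letters does not show that a factor was bound.

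Genes of nucleotide supply had the largest median of the replication genes. All 4 had log2 fold changes above 0, with a median of 0.49. Of the 4, 1 was called, where 11.1% of all genes tested were called higher. *Tk1* measured 6.63, 7.04, 8.97 and 3.66 FPKM in *Wnk1fl/fl* and 7.89, 9.74, 14.1, 12.2 and 11.2 FPKM in *Wnk1d/d* libraries, so *Wnk1fl/fl* replicate 3 lay above *Wnk1d/d* replicate 1 and the other controls lay below all *Wnk1d/d* libraries. Its means were 6.58 ± 2.19 (SD, n = 4) and 11.0 ± 2.38 FPKM (SD, n = 5), a log2 fold change of 0.70 (SE 0.22, limma adjusted p = 0.0495, exact permutation p = 0.024), and it was the 1 DEG among the replication genes. Without *Wnk1fl/fl* replicate 4 the value was 0.48 (limma adjusted p = 0.098), and *Tk1* was called in 2 of the 9 leave-one-out fits. *Rrm2*, the subunit of ribonucleotide reductase that is made in S phase, had 6.69, 6.75, 8.91 and 4.17 FPKM in *Wnk1fl/fl* and 8.05, 9.10, 14.2, 10.7 and 9.69 FPKM in *Wnk1d/d* libraries. Only *Wnk1fl/fl* replicate 3 reached the *Wnk1d/d* range, and *Rrm2* missed the threshold (log2 fold change 0.59, SE 0.20, limma adjusted p = 0.059). *Tyms*, the thymidylate synthase, and *Rrm1*, the large reductase subunit, had 0.40 and 0.27 (limma adjusted p = 0.19 and 0.10).

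Regulators of S phase entry and of its checkpoint gave no call, where 11.1% of all genes tested were called higher. The 4 genes had a median log2 fold change of 0.27. *Chek1*, the checkpoint kinase that responds to stalled forks, was the 1 of 19 replication genes without overlap, where 9.27% of all genes tested were separated in this direction. It was at 1.36, 1.06, 1.65 and 0.95 FPKM in *Wnk1fl/fl* and 1.66, 1.67, 2.80, 1.95 and 1.84 FPKM in *Wnk1d/d* libraries. The gap between the highest control and the lowest *Wnk1d/d* library was small, and the log2 fold change was 0.40 (SE 0.14, limma adjusted p = 0.065, exact permutation p = 0.0079, the smallest that 4 against 5 libraries allow). *E2f1* and *E2f2*, transcription factors of the G1/S border, had 0.37 and 0.17 (limma adjusted p = 0.15 and 0.25). *Cdk2*, the kinase of cyclins E and A, measured 25.8, 26.4, 26.6 and 25.1 FPKM in *Wnk1fl/fl* and 24.0, 24.9, 25.0, 26.0 and 24.6 FPKM in *Wnk1d/d* libraries. Its groups overlapped within a narrow range, and its log2 fold change was -0.06 (SE 0.05, limma adjusted p = 0.40).

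The mitosis genes all had log2 fold changes above 0, and 4 of the 28 were called higher in *Wnk1d/d* uteri, each also a DEG, with 0 called lower. Of all genes tested, 11.1% were called higher. At an unadjusted limma p under 0.05, 19 of the 28 were higher (19.7% of all genes tested), and 5 of the 28 without *Wnk1fl/fl* replicate 4 (15.4% of all genes in that fit). The median log2 fold change was 0.39 (1.31 times), and 0.24 without that library. The 4 called genes were *Ccna2*, which encodes cyclin A2, and *Kif23*, *Kif20a* and *Prc1*, whose products act at the central spindle in cytokinesis. Except for *Prc1*, these were also the mitosis genes without overlap between genotypes. They were 3 of the 28, near the 9.27% of all genes tested that were separated in this direction. The other 24 had log2 fold changes between 0.08 and 0.58 and limma adjusted p between 0.067 and 0.67. The plot of FPKM by library shows the called genes of both groups beside *Pcna*, *Mki67* and *Top2a*, which were not called.

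**Figure D4:**
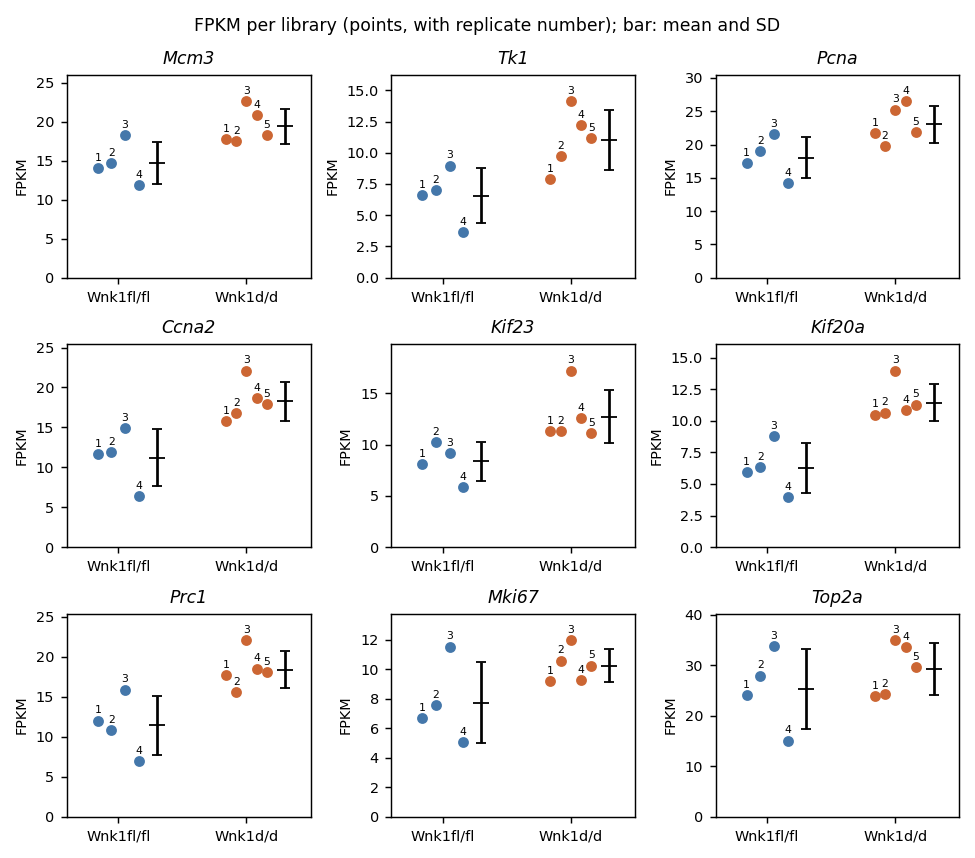
FPKM of selected genes (vertical axis, from 0) in each *Wnk1fl/fl* and *Wnk1d/d* library (points with replicate numbers), with the mean and SD of each genotype as bars. In *Kif20a*, *Kif23* and *Ccna2* the groups do not overlap, and *Wnk1fl/fl* replicate 4 is the lowest point in each.

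*Kif20a* had the largest log2 fold change of the 47 genes. This kinesin, which relocates the chromosomal passenger complex to the central spindle, measured 5.91, 6.34, 8.76 and 3.98 FPKM in *Wnk1fl/fl* and 10.5, 10.6, 14.0, 10.9 and 11.3 FPKM in *Wnk1d/d* libraries. All *Wnk1d/d* libraries exceeded all controls. The means were 6.25 ± 1.96 (SD, n = 4) and 11.4 ± 1.44 FPKM (SD, n = 5), and the log2 fold change was 0.81 (SE 0.17, limma adjusted p = 0.013, exact permutation p = 0.0079). *Kif20a* was the 1 gene of the 47 called in all 9 leave-one-out fits, with values from 0.65 to 0.97, and 0.65 without *Wnk1fl/fl* replicate 4 (limma adjusted p = 0.023). It shares 1271 exon bases with *Cdc23* on the opposite strand, which had 28.5 ± 1.23 FPKM (SD, n = 4) in *Wnk1fl/fl* and 30.9 ± 1.71 FPKM (SD, n = 5) in *Wnk1d/d* libraries (1.08 times, limma adjusted p = 0.21). Whether reads were counted by strand is not given in the sources used here, so reads of both genes cannot be told apart over these bases.

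*Kif23*, a motor of the centralspindlin complex, measured 8.12, 10.3, 9.19 and 5.87 FPKM in *Wnk1fl/fl* and 11.3, 11.3, 17.2, 12.6 and 11.1 FPKM in *Wnk1d/d* libraries, with no overlap. *Wnk1d/d* replicate 3 stood well above the other 4. The log2 fold change was 0.56 (SE 0.17, limma adjusted p = 0.040, exact permutation p = 0.0079), and 0.42 without *Wnk1fl/fl* replicate 4 (limma adjusted p = 0.093), and *Kif23* was called in 2 of the 9 leave-one-out fits. *Prc1*, which bundles the microtubules of the central spindle, measured 12.0, 10.8, 15.9 and 6.97 FPKM in *Wnk1fl/fl* and 17.7, 15.6, 22.1, 18.5 and 18.1 FPKM in *Wnk1d/d* libraries. The groups overlapped only in that *Wnk1fl/fl* replicate 3 lay just above *Wnk1d/d* replicate 2. Its log2 fold change was 0.69 (SE 0.19, limma adjusted p = 0.031, exact permutation p = 0.016), and 0.49 without *Wnk1fl/fl* replicate 4 (limma adjusted p = 0.052), and *Prc1* was also called in 2 of the 9. *Prc1* shares 911 exon bases with *Rccd1* on the opposite strand, whose FPKM was 1.22 times as high in *Wnk1d/d* uteri (limma adjusted p = 0.083). The other 3 spindle genes were *Tpx2*, *Kif11* and *Nusap1*, which build and stabilize the spindle, with log2 fold changes of 0.48, 0.38 and 0.15 (limma adjusted p = 0.11, 0.13 and 0.42).

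The mitosis promoters more often held a CHR, by count and with no test. A CHR match occurred in 18 of 24 mitosis windows (75%), in 3 of 20 replication windows (15%), in 19.2% of all windows and in 13.8% of windows of genes tested. Within 50 bases of the start, a CHR occurred in 17 of the 24 (70.8%) against 5.31% of all windows, and a CCAAT box anywhere in the window in 20 of the 24 (83.3%) against 14 of the 20 (70%) and 37.4% of all. Both windows shown belong to called genes of the central spindle, *Kif23* on the minus strand at chr9:61946750-61947049 and *Prc1* on the plus strand at chr7:80294201-80294500, with the CHR and the CCAAT box in capitals.
Kif23: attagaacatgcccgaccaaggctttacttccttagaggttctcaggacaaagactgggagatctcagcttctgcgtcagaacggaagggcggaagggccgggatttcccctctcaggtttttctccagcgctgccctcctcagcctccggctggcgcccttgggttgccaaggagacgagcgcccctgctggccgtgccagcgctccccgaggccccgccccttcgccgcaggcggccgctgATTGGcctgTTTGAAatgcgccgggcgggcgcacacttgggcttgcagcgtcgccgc
Prc1: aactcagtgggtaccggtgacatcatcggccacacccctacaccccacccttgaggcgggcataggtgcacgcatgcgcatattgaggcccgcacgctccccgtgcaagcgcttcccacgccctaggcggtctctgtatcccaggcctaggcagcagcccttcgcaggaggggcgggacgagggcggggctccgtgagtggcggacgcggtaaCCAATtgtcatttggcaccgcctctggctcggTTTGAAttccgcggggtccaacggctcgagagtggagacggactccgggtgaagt
The CHR starts 3 bases after the start of *Kif23* and 5 bases before that of *Prc1*, and the CCAAT box starts 7 and 37 bases before it. *Prc1* has a second window, not shown, in which the CHR starts 30 and the CCAAT box 62 bases before the start. Mitosis genes with a CHR had log2 fold changes from low (*Cenpa*, 0.11) to high (*Prc1*, 0.69). The called genes *Ccna2* and *Kif20a* had no window, so whether a CHR goes with a call cannot be judged here.

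The 11 mitotic cyclins and kinases had a median log2 fold change of 0.37. Of these, 1 was called, where 11.1% of all genes tested were called higher. *Ccna2* measured 11.6, 11.9, 15.0 and 6.40 FPKM in *Wnk1fl/fl* and 15.8, 16.8, 22.1, 18.7 and 17.9 FPKM in *Wnk1d/d* libraries. No control reached the *Wnk1d/d* range, although replicate 3 came close. Its means were 11.2 ± 3.55 (SD, n = 4) and 18.3 ± 2.43 FPKM (SD, n = 5), a log2 fold change of 0.70 (SE 0.20, limma adjusted p = 0.034, exact permutation p = 0.0079), and 0.48 without *Wnk1fl/fl* replicate 4 (limma adjusted p = 0.040). It was called in 4 of the 9 leave-one-out fits, and without *Wnk1d/d* replicate 3 the limma adjusted p was 0.080. *Ccna2* shares 510 exon bases with *Exosc9* on the opposite strand, itself called higher (1.19 times, limma adjusted p = 0.044). Cyclin A2 serves S phase as well as entry into mitosis, so its place among the mitosis genes is a matter of grouping.

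The kinase of mitotic entry itself was not called. *Cdk1* measured 11.3, 11.2, 12.8 and 7.5 FPKM in *Wnk1fl/fl* and 11.0, 11.8, 17.3, 15.0 and 12.5 FPKM in *Wnk1d/d* libraries, so 3 of the 4 controls lay within the *Wnk1d/d* range (log2 fold change 0.32, SE 0.16, limma adjusted p = 0.18). Its cyclins *Ccnb1* and *Ccnb2* had 0.33 and 0.41 (limma adjusted p = 0.13 and 0.12). *Ccnb1* was at a low level, 1.4, 1.61, 1.78 and 0.75 FPKM in *Wnk1fl/fl* and 1.93, 1.5, 2.23, 2.19 and 2.02 FPKM in *Wnk1d/d* libraries, where replicate 2 lay below 2 controls. Its transcript matches 4 pseudogenes, 1 of them at 99.2% identity over 1287 bases, so this level is uncertain. The kinases *Aurka*, *Aurkb* and *Plk1*, which act on centrosomes, chromosomes and the spindle, had 0.37, 0.34 and 0.35 (limma adjusted p = 0.10, 0.22 and 0.12). The checkpoint kinases *Ttk*, *Bub1* and *Bub1b* had 0.38, 0.39 and 0.19 (limma adjusted p = 0.14, 0.11 and 0.18), and *Melk* 0.40 (limma adjusted p = 0.069). *Bub1b* differed from the rest in its pattern, since *Wnk1fl/fl* replicate 4 was its highest control at 6.51 FPKM and replicate 1 its lowest at 4.49 FPKM.

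The activator of the anaphase-promoting complex, *Cdc20*, and the ubiquitin-conjugating enzyme of that complex, *Ube2c*, had log2 fold changes of 0.44 and 0.58 and were not called (limma adjusted p = 0.075 and 0.084). *Ube2c* measured 16.1, 24.8, 24.9 and 12.3 FPKM in *Wnk1fl/fl* and 24.2, 25.0, 39.7, 30.2 and 26.1 FPKM in *Wnk1d/d* libraries. The groups met at about 25 FPKM, where *Wnk1fl/fl* replicates 2 and 3 lay above *Wnk1d/d* replicate 1. *Ube2c* shares 592 exon bases with *Tnnc2*, a muscle gene on the opposite strand that had 0.45 to 3.58 FPKM in *Wnk1fl/fl* and 2.08 to 6.95 FPKM in *Wnk1d/d* libraries and was not called (limma adjusted p = 0.15).

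At the kinetochore, where chromosomes attach to the spindle, 0 of 5 genes were called (11.1% of all genes tested were called higher). *Cenpa*, the histone of the centromere, had 0.11, *Cenpe* and *Cenpf* 0.33 and 0.35, and the passenger proteins *Birc5* and *Cdca8* 0.42 and 0.43, with limma adjusted p between 0.083 and 0.54. *Top2a* and *Mki67*, commonly used to mark proliferating cells, were not called either. *Mki67* measured 6.70, 7.59, 11.5 and 5.05 FPKM in *Wnk1fl/fl* and 9.20, 10.6, 12.0, 9.24 and 10.2 FPKM in *Wnk1d/d* libraries. *Wnk1fl/fl* replicate 3 lay within the *Wnk1d/d* range and the other 3 controls below it, which gave a log2 fold change of 0.41 (SE 0.18, limma adjusted p = 0.13, exact permutation p = 0.087). *Top2a*, which untangles chromosomes, was the most abundant of the 47 genes, with 24.2, 27.97, 33.9 and 15.1 FPKM in *Wnk1fl/fl* and 24.0, 24.3, 35.0, 33.6 and 29.7 FPKM in *Wnk1d/d* libraries. The groups overlapped almost throughout once *Wnk1fl/fl* replicate 4 was set aside, and the log2 fold change of 0.25 (SE 0.21, limma adjusted p = 0.42) became 0.03 without it.

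The transcription factors of the mitotic program did not pass the test. *Foxm1* measured 3.97, 4.55, 5.71 and 3.08 FPKM in *Wnk1fl/fl* and 5.05, 5.93, 7.33, 5.82 and 5.93 FPKM in *Wnk1d/d* libraries, and *Wnk1fl/fl* replicate 3 lay above *Wnk1d/d* replicate 1 only. Its log2 fold change was 0.41 (SE 0.14, limma adjusted p = 0.067, exact permutation p = 0.024). *Mybl2* measured 1.35, 0.92, 1.36 and 1.02 FPKM in *Wnk1fl/fl* and 0.82, 1.37, 1.41, 1.42 and 1.41 FPKM in *Wnk1d/d* libraries. With *Wnk1d/d* replicate 1 the lowest library of all, its log2 fold change of 0.08 was the smallest among the mitosis genes (limma adjusted p = 0.67).

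Leaving out single libraries moved the counts while keeping the direction. Without *Wnk1fl/fl* replicate 4, the library with the liver transcripts, the median log2 fold change of the 47 genes fell from 0.38 to 0.24 (1.18 times), 46 of the 47 had a lower value, and 45 stayed above 0, as the plot with and without this library shows. The genes called were then 2, *Ccna2* and *Kif20a*, where 5.66% of all genes tested were called higher, and 10 (21.3%) were higher at an unadjusted limma p under 0.05, where 15.4% of all genes tested were higher in the same fit. Without *Wnk1fl/fl* replicate 3, the highest control, 21 of the 47 were called (8 replication and 13 mitosis genes), where 9.42% of all genes tested in that fit were called higher, and the medians were 0.48 and 0.53. Without *Wnk1d/d* replicate 3, 1 of the 46 genes tested was called, *Kif20a*, where 5.85% of all genes were called higher, and the medians were 0.29 and 0.33. With *Wnk1fl/fl* replicates 3 and 4 both left out, a choice made after their values were seen, 3 were called, all mitosis genes, where 2.11% of all genes were called higher, and the medians were 0.32 and 0.37. The sign of the log2 fold change was the same in every fit that tested a gene, for all 47 genes.

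**Figure D5:**
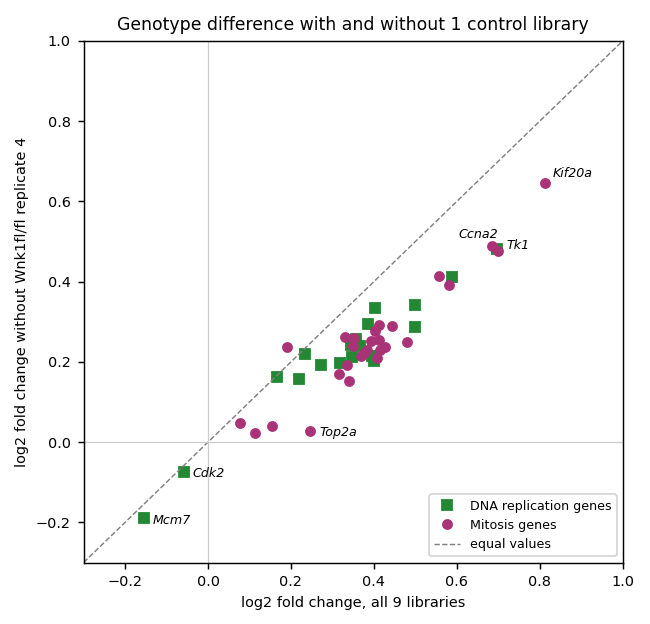
Log2 fold change of each gene without *Wnk1fl/fl* replicate 4 (vertical axis) against that over all 9 libraries (horizontal axis), for replication and mitosis genes, with a line where both are equal. Of the 47 points 46 lie below the line and 45 above 0 on the vertical axis, with *Kif20a* highest at 0.65.

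Other genes of the same pathways gave the background to the 47. Of 34 further replication genes, 33 were tested, 31 had a log2 fold change above 0 with a median of 0.24, and 1 was called higher and 0 lower, where 11.1% of all genes tested were called higher and 11.0% lower. The one called was *Orc1*, the largest subunit of the origin recognition complex, at 1.32, 1.01, 1.40 and 0.81 FPKM in *Wnk1fl/fl* and 2.19, 1.59, 2.38, 2.04 and 2.15 FPKM in *Wnk1d/d* libraries. Its groups did not overlap (log2 fold change 0.53, SE 0.12, limma adjusted p = 0.016). Of 44 further mitosis genes, 43 were tested, and 42 had a log2 fold change above 0, with a median of 0.42. Of the 43, 14 were called higher and 1 lower, where 11.1% and 11.0% of all genes tested were. The 14 became 3 without *Wnk1fl/fl* replicate 4, where 5.66% of all genes were called higher. They became 4 without *Wnk1d/d* replicate 3 (5.85% of all genes) and 24 without *Wnk1fl/fl* replicate 3 (9.42% of all genes). The largest change was that of *Anln*, an actin-binding protein of the contractile ring, at 4.5, 2.98, 5.58 and 2.23 FPKM in *Wnk1fl/fl* and 8.71, 8.67, 11.5, 9.20 and 9.49 FPKM in *Wnk1d/d* libraries. No overlap was seen, the log2 fold change was 1.17 (SE 0.19, limma adjusted p = 0.0057), and *Anln* was called in all 20 alternative fits. *Pbk*, a mitotic kinase, *Ckap2*, a spindle protein, and *Spc25*, a kinetochore subunit, followed with 0.90, 0.83 and 0.64 (limma adjusted p = 0.020, 0.017 and 0.041). The gene called lower was *Cdc25b*, a phosphatase that activates CDK1, with 19.9 ± 0.96 FPKM (SD, n = 4) in *Wnk1fl/fl* and 15.5 ± 1.34 FPKM (SD, n = 5) in *Wnk1d/d* libraries (log2 fold change -0.34, SE 0.07, limma adjusted p = 0.014).

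The 16 E2F, pocket protein and DREAM regulators switch the genes of both groups on and off. By limma, 0 were called higher and 1 lower, where 11.1% of all genes tested were called higher and 11.0% lower. At an unadjusted limma p under 0.05, 2 were higher and 1 lower, where 19.7% of all genes tested were higher. Their median log2 fold change was 0.04. The gene called lower was *Tfdp2*, a partner of E2F factors, with 12.7 ± 1.30 FPKM (SD, n = 4) in *Wnk1fl/fl* and 9.12 ± 1.38 FPKM (SD, n = 5) in *Wnk1d/d* libraries (log2 fold change -0.45, SE 0.11, limma adjusted p = 0.022). Promoters of the further genes followed the sequence pattern of the 47. An E2F-type match occurred in 28.6% of the windows of further replication genes and 10.5% of those of further mitosis genes, and a CHR in 25% and 73.7%.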

How the data were processed

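Total RNA of whole uteri was sequenced, 1 library per mouse, and the authors made FPKM values from it with TopHat2 (alignment to mm10) and Cufflinks. Per the labels these were versions 2.0.4 and 2.0.2, whereas the study's methods give a later Cufflinks version. The gene annotation and the use of strand are not given in the sources used here. The deposited FPKM values were used without further scaling. FPKM holds no counts, so absolute depth is unknown and no counting intervals are given. Steps in low values gave a relative worth of 1 fragment from 0.887 to 1.09, and median log2 values of tested genes were 3.79 to 3.82 in all 9 libraries, also in *Wnk1d/d* replicate 4, where 1 entry takes 70.3% of summed FPKM. Library correlations across genes, which are not independent replicates, were 0.942 to 0.969 within and 0.906 to 0.956 between genotypes.

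The 14728 genes whose mean FPKM exceeded 1 in either genotype were compared on log2(FPKM + 1), a scale that understates changes of low genes. The fit used limma 3.58.1 in R 4.3.3 (lmFit, then eBayes with a mean trend, no pairing). P-values were adjusted by Benjamini-Hochberg over all of these genes. The step was first tested on simulated data with independent noise for each gene, which hold no library shifts shared by many genes. Called means an adjusted p under 0.05. For single genes, mean log2(FPKM + 1) was permuted over all splits into 4 and 5 libraries (exact, two-sided) in Python 3.11.15. The same-numbered libraries are different mice. Alternatives were 19 planned fits and 1 added after the values were seen. Sequences are RefSeq promoters (GRCm38.p6). Exon overlaps come from GENCODE M21 on mm10, and pseudogenes of at least 95% identity over 200 bases from minimap2 2.31. Overlaps with another gene touch 11 of the 47 genes, and near-identical pseudogenes 9.

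The members and the gene and marker lists were chosen with earlier results of these data known. Values in every library are given for called members, for *Mki67*, *Pcna*, *Mcm2*, *Top2a*, *Cdk1*, *Ccnb1* and *Foxm1*, for the highest and lowest log2 fold change in each group, and for members without overlap, and called genes of each further list are named up to the 4 with the largest change. *Mcm6*, *Rrm2*, *Ube2c*, *Cdk2* and *Cdc25b* were given as well after their values were seen. The authors' protein, histology and cell culture measurements were not analysed here.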

Additional observations from a re-analysis of the deposited data

Results flagged for a closer look

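A single library lay far from the others of its genotype in 10 of the 94 groups of values examined, by Dixon's criterion. The groups were 47 genes in each of the 2 genotypes. For independent groups, chance gives about 1 in 20, or 4.7 here. These groups share the same libraries and are not independent, so the 10 flags against 4.7 are no test of an excess. All 10 were among the *Wnk1d/d* libraries, and 7 of them were high values in replicate 3. These were *Rrm1* at 18.0 FPKM (others 14.4 to 15.3), *Chek1* at 2.80 FPKM (others 1.66 to 1.95), *Aurka* at 9.08 FPKM (others 6.68 to 7.26), *Ttk* at 3.13 FPKM (others 2.52 to 2.68), *Bub1* at 3.01 FPKM (others 2.10 to 2.28), *Kif23* at 17.2 FPKM (others 11.1 to 12.6) and *Kif20a* at 14.0 FPKM (others 10.5 to 11.3). The other 3 were low values, *Mcm6* at 13.1 FPKM (others 19.3 to 21.0) and *Mybl2* at 0.82 FPKM (others 1.37 to 1.42) in replicate 1, and *E2f2* at 1.46 FPKM (others 1.80 to 1.92) in replicate 5.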

How the results depend on the processing

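Each of the 47 genes kept its direction in every one of the 20 alternative fits that tested it (18 to 20 fits per gene). The medians of both groups of genes moved by less than the spread between libraries in each. That spread (SD within genotypes) was 0.21 for replication and 0.24 for mitosis genes, beside medians of 0.36 and 0.39, so this is a loose criterion. Without *Wnk1fl/fl* replicate 4 the medians fell to 0.22 and 0.24. The counts of called genes moved. For replication genes (2 called, 1 DEG) the count called was 0 without the FPKM filter, without trend, with a replicate block and with *Wnk1fl/fl* replicates 3 and 4 left out, and 1 with quantile normalization. Their DEGs were 0 without the filter, without trend, with quantile normalization, with a replicate block and at a fold criterion of 2, and 2 with library weights. For mitosis genes (4 called, 4 DEGs) both counts were 2 without the filter and 0 with a replicate block, and DEGs were 0 at a fold criterion of 2. Leaving out 1 library at a time gave 0 to 8 called replication genes and 0 to 4 DEGs. It gave 1 to 13 called mitosis genes and 1 to 13 DEGs, the highest without *Wnk1fl/fl* replicate 3. Calls over all genes moved as well. In the main fit 11.1% were called higher, against 5.66% without *Wnk1fl/fl* replicate 4, 5.85% without *Wnk1d/d* replicate 3 and 9.42% without *Wnk1fl/fl* replicate 3. With a replicate block 133 of 14728 genes were called higher, and with quantile normalization 1514. For the other settings the count over all genes is not given here.

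Of the further replication genes (1 higher) 0 were called at a filter of 5 FPKM and with a replicate block, 4 with library weights, and 1 to 7 without single libraries. Of the further mitosis genes (14 higher, 1 lower) 9 were higher at a filter of 5 FPKM, 8 without the filter, 1 higher and 0 lower with a replicate block, and 3 to 24 higher without single libraries. Of the E2F, pocket protein and DREAM regulators (0 higher, 1 lower) 2 were higher with library weights, 1 with median scaling, 0 lower with a replicate block, and 0 to 1 either way without single libraries. The shares over all genes, where given above, apply to these lists too. The cause of these moves was not tested.

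Replicate numbers did not pair the libraries. The correlations of same-numbered libraries were -0.09, -0.003, 0.02 and -0.27, and 0 of 4 libraries correlated best with their own number. With the replicate block, 133 genes in all were called higher and 87 lower, against 1630 and 1619 without it. Of 301 values of single genes, 250 stayed on the same side of the threshold, 46 lost it, 5 reached it and 0 changed sign. Absolute depth is unknown, and levels near 1 FPKM (*Cdc6*, *Mybl2*, *E2f2*, *Chek1*) are the least precise.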
